A study of Homo sapiens with 6 samples.

Results

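The 42 genes described here encode receptors for the transmitters glutamate and GABA. They were chosen by name, as ionotropic and metabotropic glutamate receptors and GABA receptor subunits, and are 42 of the 20046 protein-coding genes of GENCODE 44. They comprise 17 ionotropic glutamate receptor genes, 7 metabotropic glutamate receptor genes, 16 ionotropic GABA receptor genes and 2 metabotropic GABA receptor genes. The data are peaks from chromatin immunoprecipitation followed by sequencing (ChIP-seq) in SH-SY5Y, a human neuroblastoma line, and a peak was assigned to a gene when it touched the gene body by at least 1 nt. All cells stably expressed 82-kDa ChAT, a nuclear form of choline acetyltransferase, and were differentiated with retinoic acid for 3 days. They were then given vehicle or 100 nM oligomeric Aβ1–42 for 4 h, with 3 plates of cells for each treatment. Chromatin was precipitated with antibodies to SATB1 or to the C-terminus of ChAT, which the shorter ChAT protein has as well, which gave 4 peak lists with 1 library each. No cells without the 82-kDa ChAT transgene were among the groups, so vehicle cells carried it too. With 1 library per protein and treatment no p-value was computed between treatments, and the intervals below are exact Poisson or binomial intervals at 95% that cover counting error only. The number of reads in each library is not known from the lists, so the counts could not be scaled by depth. The lists held 7460 (82-kDa ChAT, vehicle), 6345 (82-kDa ChAT, Aβ), 2884 (SATB1, vehicle) and 5857 (SATB1, Aβ) peaks on chromosomes 1 to 22, X and Y.

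Ionotropic glutamate receptors are cation channels that carry most fast excitatory transmission, and comprise the AMPA, kainate, NMDA and delta families. Metabotropic glutamate receptors and GABA-B receptors signal through G proteins, whereas GABA-A receptors are chloride channels that carry most fast inhibition. SATB1 is a nuclear matrix protein that binds AT-rich DNA at the base of chromatin loops. Many receptor genes have very long introns. The gene bodies here ranged from 9.31 kb (GRIN3B) to 1119 kb (GRIK2), with a median of 176 kb against 27.4 kb for all protein-coding genes, so the number of peaks in them was read against their length. The expected number was the density of peaks of the same list over all other protein-coding gene bodies, multiplied by the 11.2 Mb that the receptor genes cover.

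A site in GRIN2B and one in GRIK3 where peaks of both proteins met or lay close together are shown first, on the plus strand of hg38, because their sequences are repetitive. In GRIN2B, the gene of an NMDA receptor subunit that binds glutamate, a ChAT peak after vehicle lay inside a SATB1 peak after Aβ. The first 300 nt of the ChAT peak, chr12:13526290-13526589, are printed with the pentamer GAATG in capitals, as the marker of a repeat of about 20 nt.
GRIN2B: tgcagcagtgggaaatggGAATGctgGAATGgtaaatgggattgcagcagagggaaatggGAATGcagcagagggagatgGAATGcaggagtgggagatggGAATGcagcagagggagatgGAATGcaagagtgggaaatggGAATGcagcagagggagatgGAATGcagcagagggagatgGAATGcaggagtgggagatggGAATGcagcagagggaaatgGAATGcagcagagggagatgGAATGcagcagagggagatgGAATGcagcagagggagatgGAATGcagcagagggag
The capitals occur 14 times there. Among consecutive 300 nt windows of the receptor gene bodies, 52.1% held GAATG or its complement CATTC at least once and 1 of 37316 held as many. In intron 1 of GRIK3, a kainate receptor gene, ChAT and SATB1 peaks after vehicle lay 26 nt apart in a second repeat, whose most frequent 8 letters, TGTGCCCC, are in capitals. The ChAT peaks are chr1:36957660-36957833 and chr1:36959103-36959266, and the SATB1 peak is chr1:36957860-36957981.
GRIK3 ChAT, first: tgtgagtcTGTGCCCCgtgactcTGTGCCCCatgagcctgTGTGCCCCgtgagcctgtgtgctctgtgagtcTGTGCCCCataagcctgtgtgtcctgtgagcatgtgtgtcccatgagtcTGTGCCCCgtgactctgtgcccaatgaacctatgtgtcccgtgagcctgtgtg
GRIK3 SATB1: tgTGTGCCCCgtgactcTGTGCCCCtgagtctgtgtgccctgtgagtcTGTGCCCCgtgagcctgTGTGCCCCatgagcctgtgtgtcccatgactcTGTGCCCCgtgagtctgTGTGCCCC
GRIK3 ChAT, second: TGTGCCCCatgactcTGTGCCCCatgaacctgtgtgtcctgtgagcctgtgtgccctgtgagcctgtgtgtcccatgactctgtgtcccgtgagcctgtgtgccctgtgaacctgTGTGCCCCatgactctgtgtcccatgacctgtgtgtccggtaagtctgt
Of the windows of 122 nt in the receptor gene bodies, 0.371% held these 8 letters at least once on either strand. Both words were picked after the peaks were seen, and the windows include the sites shown. The shares thus describe how common the words are and test nothing.

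The receptor genes held 59 peaks over the 4 lists, and 79.4 were expected from their length. The interval of this total, 44.9 to 76.1, did not include the expected number. It did include the 73.5 expected from the density over protein-coding genes of 100 kb or more, and without Alu-matching peaks (Alu being a repeat described below) 46 peaks stood against 55.2, inside their interval as well. Of the 82-kDa ChAT peaks, 20 lay in receptor genes after vehicle (interval 12.2 to 30.9, expected 23.4) and 20 after Aβ (interval 12.2 to 30.9, expected 23.1). Of the SATB1 peaks, 4 lay there after vehicle (1.09 to 10.2, expected 8.96) and 15 after Aβ (8.4 to 24.7, expected 23.8). The expected number lay inside the interval in all 4 lists, so a departure from length was not detectable in any single list. The ratios of observed to expected were 0.853, 0.865, 0.447 and 0.629, in the same order. With the density over all determined bases as reference the SATB1 interval after vehicle no longer held the expected number (4 against 11), and with gene bodies extended by 10 kb the same was so for SATB1 after Aβ (16 against 26.8). Receptor genes held 0.733%, 0.743%, 0.385% and 0.542% of the peaks in protein-coding genes while covering 0.858% of the bases.

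**Figure D1:**
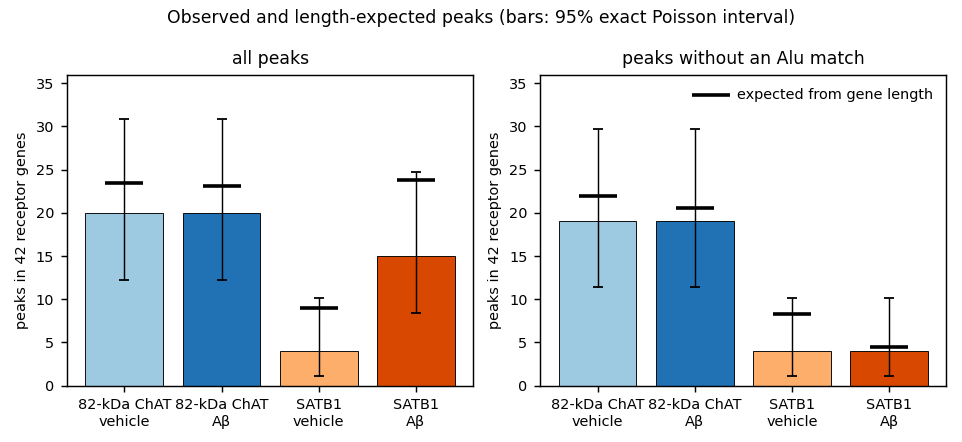
Number of peaks in the 42 receptor genes (bars, with exact Poisson intervals at 95%) and the number expected from gene length (black lines) for each list, for all peaks on the left and for peaks without an Alu match on the right. The black lines lie inside the intervals in all 8 cases, and leaving out Alu-matching peaks takes the SATB1 list after Aβ from 15 to 4.

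Peaks were found in 23 of the 42 genes (54.8%), compared to 26.9% of all protein-coding genes, and 19 had none. From other protein-coding genes in the same bands of length, 23 were expected. Of the genes with peaks, 8 had them in 1 list, 10 in 2 lists, 5 in 3 lists and 0 in all 4, against 9.46, 6.6, 4.82 and 2.16 expected from these bands. The 5 genes in 3 lists were GABRB1, GRIA1, GRID1, GRIN2B and GRM5. After vehicle 14 receptor genes held a ChAT peak, which is 33.3% of them, compared to 10.5% of all protein-coding genes. After Aβ 12 held a ChAT peak (28.6%, against 11.1%). For SATB1 the numbers were 4 genes after vehicle (9.52%, against 4.83%) and 13 after Aβ (31%, against 12%). Among the 24 receptor genes of 100 kb or more the shares with a peak were 58.3%, 50%, 12.5% and 50%, against 32.6%, 34.6%, 17% and 32.9% of all protein-coding genes of that length. The long receptor genes were themselves longer (median 388 kb against 174 kb). By list, the bands of length gave 12.7, 13.6, 7.19 and 12.2 receptor genes expected to hold a peak, against the 14, 12, 4 and 13 observed. Of the 18 receptor genes shorter than 100 kb, 2 had a peak, GRIK5 (SATB1 after Aβ) and GABRA5 (SATB1 after vehicle), which is 11.1% against 17.6% of all protein-coding genes of that length. The longest gene without a peak was GRIN2A, which encodes an NMDA receptor subunit, at 429525 nt with 3.04 peaks expected over the 4 lists.

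**Figure D2:**
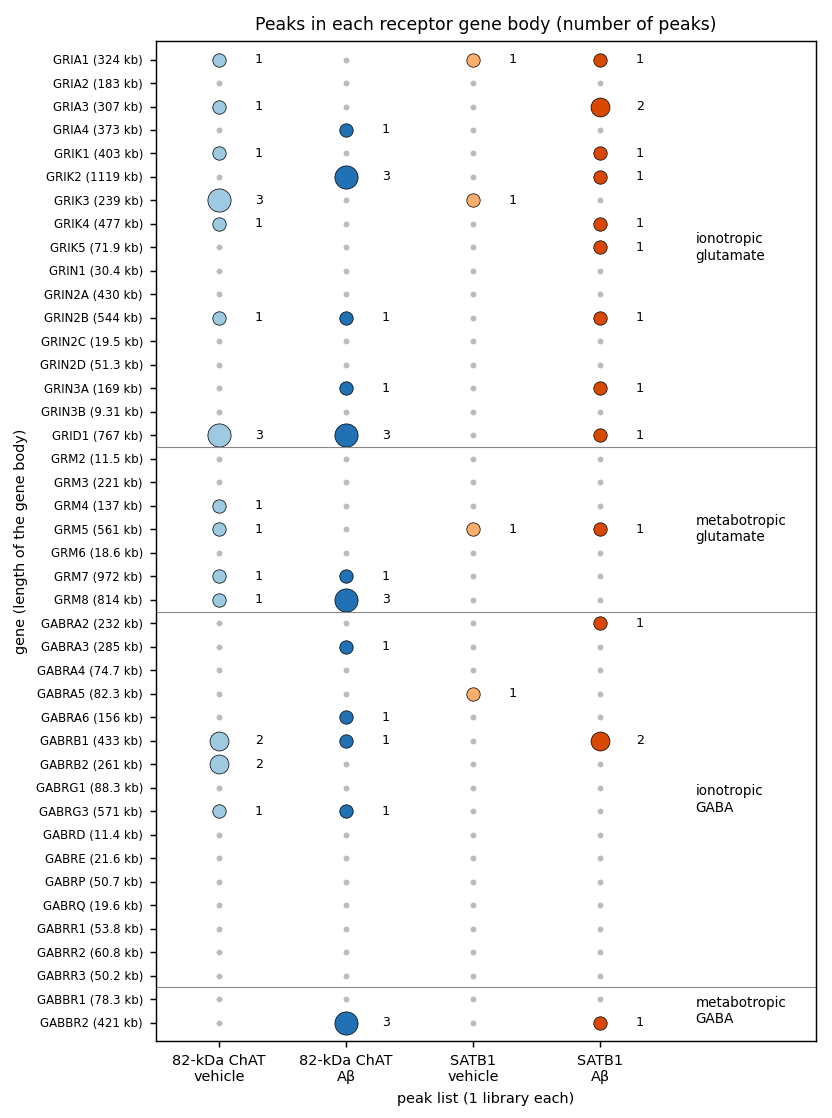
Number of peaks in the body of each receptor gene (rows, with gene length) in each peak list (columns), where circle area and the digit beside it give the number and grey dots mark 0. GRID1 has the most peaks, 7 over the 4 lists, and no gene has circles in all 4 columns.

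Among the AMPA receptor genes, which encode the channels of fast excitation, GRIA1 held 1 ChAT peak and 1 SATB1 peak after vehicle and 1 SATB1 peak after Aβ. Its ChAT and SATB1 peaks after vehicle were 2164 nt apart in intron 2. GRIA3 held 1 ChAT peak after vehicle and 2 SATB1 peaks after Aβ, GRIA4 held 1 ChAT peak after Aβ, and GRIA2 held none. The SATB1 peak in intron 2 of GRIA3, chrX:123248055-123248109, had the highest score of the SATB1 peaks in receptor genes after Aβ, 102.65 (the MACS score, 10 × −log10 of p, which ranks peaks within a list). It is shown for this score, and it matched 1 place in the genome and no Alu. Capitals mark 7 letters with a C in the middle and 3 A or T on each side, on either strand, the pattern known for SATB1.
GRIA3: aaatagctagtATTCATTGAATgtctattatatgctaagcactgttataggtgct
The matches overlap there.

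The kainate receptor genes held 13 peaks in all. GRIK3 was the densest of them for ChAT after vehicle, with 3 peaks where 0.5 was expected from its 239 kb, and it also held 1 SATB1 peak after vehicle. After Aβ it held no peak of either protein, where 0.494 (ChAT) and 0.509 (SATB1) were expected. The scores of the peaks shown above were 88.84 and 56.39 (ChAT) and 53.66 (SATB1). All 4 peaks lay within intron 1, between 75.3 and 81 kb from the gene start. The shortest of them, chr1:36953517-36953576, had the highest score of all ChAT peaks in receptor genes after vehicle, 130.74, and lay outside the repeat shown above.
GRIK3 highest score: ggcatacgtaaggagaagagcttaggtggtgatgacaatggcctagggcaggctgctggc
It holds 0 matches to the SATB1 pattern. GRIK2, with 4 peaks over the 4 lists where 7.93 were expected, showed the other arrangement. After vehicle it held 0 peaks, where 2.34 (ChAT) and 0.895 (SATB1) were expected. After Aβ it held 3 ChAT peaks and 1 SATB1 peak, where 2.31 and 2.38 were expected. One of these ChAT peaks overlapped the SATB1 peak. The other ChAT peaks of GRIK2 were chr6:101570597-101570713 (score 78.54) and chr6:101862610-101862660 (score 82.92), in introns 2 and 11. GRIK1 and GRIK4 each held 1 ChAT peak after vehicle and 1 SATB1 peak after Aβ, which were 85614 nt and 40550 nt apart. GRIK5 held 1 SATB1 peak after Aβ.

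Of the 7 NMDA receptor genes, peaks were found in GRIN2B and GRIN3A. GRIN2B held 1 peak each for ChAT after vehicle, ChAT after Aβ and SATB1 after Aβ. The overlapping peaks shown above had scores of 118.5 (ChAT, 392 nt) and 59.36 (SATB1, 524 nt), and lay 10655 nt and 10592 nt from the nearest annotated exon. The ChAT peak after Aβ, chr12:13551285-13551339, lay in exon 14 of 14 outside the coding sequence, and was the only 1 of the 59 peaks in an annotated exon. Its score of 96.96 was the highest of the ChAT peaks in receptor genes after Aβ. GRIN3A, the gene of a modulatory NMDA receptor subunit, held 1 ChAT peak and 1 SATB1 peak after Aβ, 52105 nt apart. GRIN1, GRIN2A, GRIN2C, GRIN2D and GRIN3B held none.

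GRID1, which encodes a delta receptor involved in synapse organisation, held 3 ChAT peaks after vehicle, 3 after Aβ and 1 SATB1 peak after Aβ, against 1.61, 1.58 and 1.63 expected. The ChAT peaks after vehicle were chr10:85662787-85662999 (score 55.26), chr10:85949989-85950095 (score 65.08) and chr10:85961788-85961874 (score 78.83). Those after Aβ were chr10:85644714-85644766 (score 88.99), chr10:85811699-85811811 (score 56.61) and chr10:85812797-85812895 (score 66.05). The peaks of the 2 treatments did not meet, and the closest pair was 18020 nt apart. The ChAT peaks after Aβ included 2 in intron 8. The SATB1 peak in intron 2, chr10:86223789-86223922 with a score of 67.53, is a repeat with a period of 44 nt, and capitals mark the first unit.
GRID1: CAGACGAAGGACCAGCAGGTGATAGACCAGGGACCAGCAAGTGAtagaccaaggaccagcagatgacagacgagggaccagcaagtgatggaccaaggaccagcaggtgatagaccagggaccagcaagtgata
At this period 88.9% of the bases equalled the base 1 unit before.

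**Figure D3:**
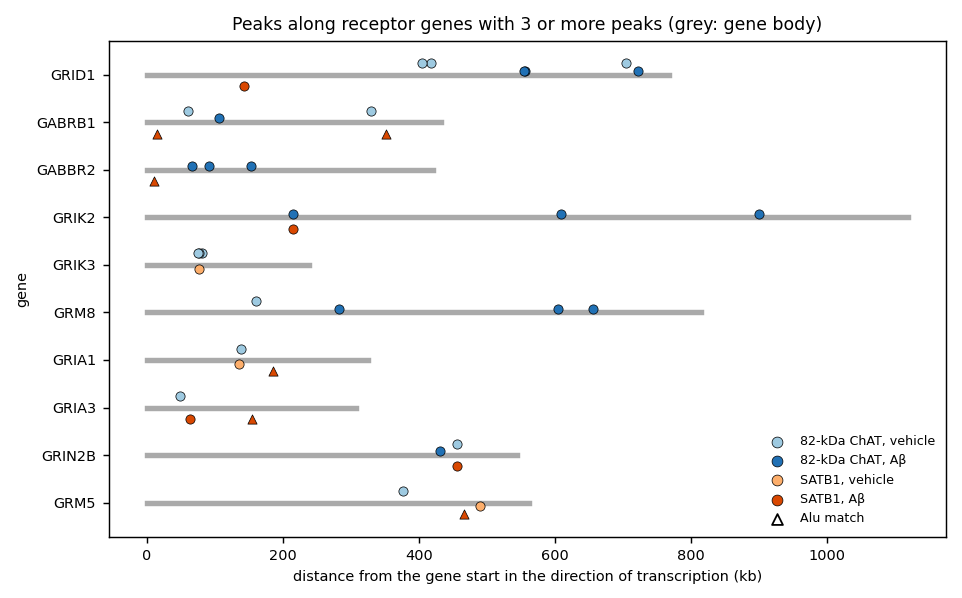
Positions of the peaks (symbols, coloured by list, with triangles for Alu-matching peaks) along the bodies (grey lines) of the 10 receptor genes with 3 or more peaks, as distance from the gene start in kb. The symbols of different lists coincide in GRIK2 and in GRIN2B, in the latter near 456 kb, and the 4 peaks of GRIK3 lie together between 75.3 and 81 kb.

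The metabotropic glutamate receptor genes held 10 peaks. GRM8 held 1 ChAT peak after vehicle and 3 after Aβ, GRM7 held 1 ChAT peak after each treatment, and GRM4 held 1 ChAT peak after vehicle. The ChAT peaks of GRM8 after Aβ were chr7:126597520-126597609 (score 59.74), chr7:126649486-126649575 (score 66.26) and chr7:126970663-126970729 (score 54.22), in introns 8, 7 and 3. These genes encode presynaptic receptors that lower transmitter release. GRM5, a postsynaptic receptor coupled to calcium release, held 1 ChAT peak and 1 SATB1 peak after vehicle and 1 SATB1 peak after Aβ. Its SATB1 peak after vehicle, chr11:88577012-88577139 in intron 7, had the highest score of the 4 in receptor genes, 99.47, and its SATB1 peak after Aβ was 22713 nt away. Capitals mark the SATB1 pattern as above.
GRM5: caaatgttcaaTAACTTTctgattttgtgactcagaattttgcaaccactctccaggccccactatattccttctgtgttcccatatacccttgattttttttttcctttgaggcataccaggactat
The ChAT peak of GRM8 after vehicle, chr7:127092780-127092906 with a score of 53.93, was the only 1 of the 59 that lay within 2 kb upstream of an annotated transcript start, that of an alternative transcript. Capitals mark TCCAT, which was searched for together with TCCCAT, on either strand.
GRM8: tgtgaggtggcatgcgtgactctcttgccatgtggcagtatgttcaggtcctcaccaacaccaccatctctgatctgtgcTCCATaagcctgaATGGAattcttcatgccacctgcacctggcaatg
GRM2, GRM3 and GRM6 held none.

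The GABA-A receptor genes held 13 peaks. GABRB1, which encodes a beta subunit, held 2 ChAT peaks after vehicle, 1 ChAT peak after Aβ and 2 SATB1 peaks after Aβ, against 0.906, 0.894 and 0.921 expected. The ChAT peaks were chr4:47054482-47054631 (score 55.75) and chr4:47323475-47323589 (score 59.63) after vehicle and chr4:47099361-47099461 (score 65.62) after Aβ. One of the SATB1 peaks was chr4:47344837-47344985 (score 79.22). None of the 5 overlapped, and the closest of different lists were 21247 nt apart. GABRB2 held 2 ChAT peaks after vehicle, and GABRG3, a gamma subunit gene, held 1 ChAT peak after each treatment. GABRA3 and GABRA6 held 1 ChAT peak each after Aβ, GABRA2 held 1 SATB1 peak after Aβ and GABRA5 held 1 SATB1 peak after vehicle, all 4 being alpha subunit genes. The peak of GABRA5 also lay in the body of another protein-coding gene. The ChAT peak of GABRG3 after vehicle, chr15:27422134-27422274, was the most regular repeat among the 59, with a period of 48 nt (first unit in capitals) and 90.3% of bases equal to the base 1 unit before.
GABRG3: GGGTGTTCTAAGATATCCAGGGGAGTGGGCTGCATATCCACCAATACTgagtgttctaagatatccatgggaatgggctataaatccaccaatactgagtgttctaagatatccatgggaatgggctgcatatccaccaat
The 3 rho subunit genes GABRR1, GABRR2 and GABRR3 held none, with 0.345, 0.34, 0.132 and 0.351 expected in the 4 lists. GABRA4, GABRG1, GABRD, GABRE, GABRP and GABRQ held none either. Of the GABA-B receptor genes, GABBR1 held none. GABBR2, whose product couples the receptor to its G protein, held 3 ChAT peaks and 1 SATB1 peak after Aβ. There 0.869 (ChAT) and 0.896 (SATB1) were expected, and after vehicle it held 0, where 0.881 and 0.337 were expected. The ChAT peaks of GABBR2 were chr9:98555493-98555633 (score 73.79), chr9:98617489-98617673 (score 78.1) and chr9:98642155-98642276 (score 72.96), and its SATB1 peak was chr9:98698624-98698747 (score 69.49). The first of the ChAT peaks, in intron 2, lay 19 nt from an exon, the closest of the peaks outside exons (SATB1 pattern in capitals).
GABBR2: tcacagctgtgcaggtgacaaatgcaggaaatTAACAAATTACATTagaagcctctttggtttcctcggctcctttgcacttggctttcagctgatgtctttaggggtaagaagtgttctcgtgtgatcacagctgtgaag

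By class, the ionotropic glutamate receptor genes held 11, 9, 2 and 10 peaks in the lists for ChAT after vehicle, ChAT after Aβ, SATB1 after vehicle and SATB1 after Aβ, against 11.5, 11.4, 4.41 and 11.7 expected. The ionotropic GABA receptor genes held 5, 4, 1 and 3, against 5.12, 5.06, 1.96 and 5.21. The metabotropic GABA receptor genes held 0, 3, 0 and 1, against 1.04, 1.03, 0.399 and 1.06. The metabotropic glutamate receptor genes held 4, 4, 1 and 1, against 5.73, 5.65, 2.19 and 5.82. The last of these 16 was the only expected number that lay outside the interval of its count (1 peak, 0.0253 to 5.57), and no adjustment was made for the number of values. With scores at or above the list median it was 0 peaks against 3.02, which the interval held. The bodies of the metabotropic glutamate receptor genes hold 4.11% Alu bases, and with Alu-matching peaks expected from these bases 2.82 peaks were expected in place of 5.82, which lies inside the interval.

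**Figure D4:**
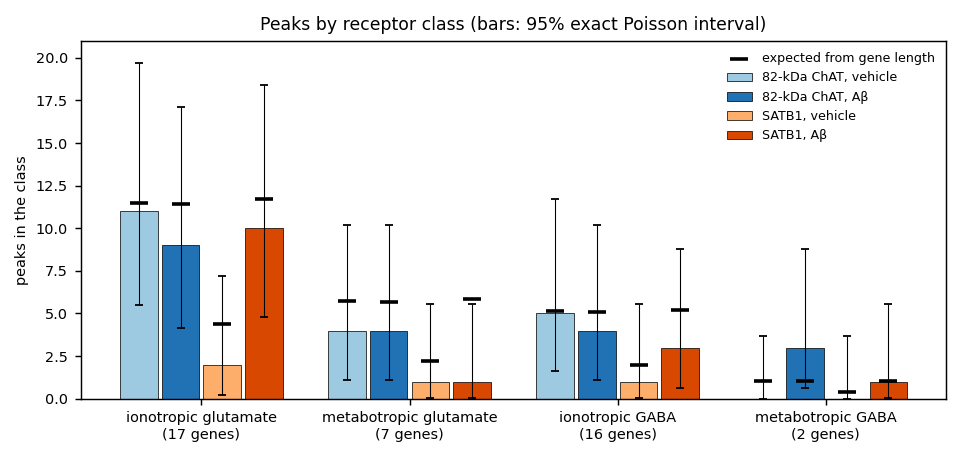
Peaks in each receptor class (bars, coloured by list, with exact Poisson intervals at 95%) and the number expected from gene length (black lines). The black line lies outside the interval in 1 of the 16 cases, the SATB1 peaks of metabotropic glutamate receptor genes after Aβ, where 1 peak stands against 5.82.

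Alu is an abundant short interspersed repeat of primate genomes. Of the 15 SATB1 peaks in receptor genes after Aβ, 11 matched Alu (73.3%), against 81% of the SATB1 peaks in other protein-coding genes. Alu matched 1 of 20 ChAT peaks after vehicle (GABRB2), 1 of 20 after Aβ (GRM7) and 0 of 4 SATB1 peaks after vehicle. The 11 SATB1 peaks lay in GABBR2, GABRA2, GABRB1 (2 peaks), GRIA1, GRIA3, GRIK1, GRIK4, GRIK5, GRIN3A and GRM5. Receptor gene bodies were poor in Alu, at 4.78% of their bases against 11.3% in other protein-coding genes. From length alone 19.3 Alu-matching SATB1 peaks were expected after Aβ, and from the Alu bases of the bodies 8.15, against the 11 observed (interval 5.49 to 19.7). Over the 4 lists 65.4 peaks were expected in this way against 59, which lies inside the interval of the total. The part of Alu content in the difference between observed and length-expected numbers was otherwise not tested. The 4 SATB1 peaks after Aβ without Alu lay in GRIA3, GRID1, GRIK2 and GRIN2B, all ionotropic glutamate receptor genes, where 2.23 were expected in that class and 4.53 in all receptor genes.

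Some of the peaks, those of GRIN2B shown above among them, were tandem repeats. A peak was counted as a tandem repeat when at least 70% of its bases equalled the base 1 period before, for a period of up to 60 nt. By this measure 2 of 20 ChAT peaks after vehicle (GABRG3, GRIN2B), 3 of 20 after Aβ (GRIA4, GRID1, GRIK2), 0 of 4 SATB1 peaks after vehicle and 2 of 15 after Aβ (GRID1, GRIN2B) were repeats. In peaks of other protein-coding genes the shares were 19.4%, 6.58%, 13.3% and 3.27%, and in windows of the receptor gene bodies between 0.27% and 0.39%. The repeat peaks of GRIK3 stood just under the threshold, at 69.6% and 68.7% for ChAT and 64.8% for SATB1. At a threshold of 60% the receptor gene peaks numbered 11 of 59 (18.6%), against 13.8% of the peaks of other protein-coding genes. Of the 59 peaks, 40 matched only their own place in the genome and 12 matched more than 1000 places, 11 of which were SATB1 peaks after Aβ.

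Overlaps between lists were few. No ChAT peak in a receptor gene after vehicle (0 of 20) overlapped one after Aβ, against 2.92% of those in other protein-coding genes. Between ChAT after vehicle and SATB1 after vehicle the number was 0 of 20 (9.38% elsewhere), with GRIK3 the only pair within 200 nt. It was 1 of 20 for ChAT after vehicle and SATB1 after Aβ (GRIN2B, 1.22% elsewhere) and 1 of 20 for ChAT and SATB1 after Aβ (GRIK2, 2.88% elsewhere). Between ChAT after Aβ and SATB1 after vehicle it was 0 of 20 (0.86% elsewhere), and between the SATB1 lists 0 of 4 (0.773% elsewhere). A count of 0 of 20 allows a share of up to 16.8%, by the exact binomial interval, so a difference from the shares elsewhere was not detectable. The ChAT lists had 6 receptor genes in common, GABRB1, GABRG3, GRID1, GRIN2B, GRM7 and GRM8, which is 6 of 14 after vehicle and 6 of 12 after Aβ. These are 14.3% of the receptor genes, compared to 3.29% of all protein-coding genes, while 7.51 were expected from other genes in the same bands of length. The lists after Aβ had 6 in common as well, GABBR2, GABRB1, GRID1, GRIK2, GRIN2B and GRIN3A, of 12 for ChAT and 13 for SATB1. Of all protein-coding genes 3.3% held peaks of both these lists, and 6.83 receptor genes were expected from the bands of length. ChAT after vehicle and SATB1 after Aβ shared 8 receptor genes (19%, against 3.09% of all protein-coding genes, 6.42 expected). ChAT and SATB1 after vehicle shared 3 (7.14%, against 2.39%, 4.88 expected). The SATB1 lists shared 2 (4.76%, against 1.59%, 4 expected). ChAT after Aβ and SATB1 after vehicle shared 0 (against 1.65%, 4.36 expected). In GABBR2, GABRB1, GRIA1, GRIK1, GRIK4, GRIN3A and GRM5 every SATB1 peak after Aβ matched Alu and more than 1000 places in the genome. Without such peaks SATB1 after Aβ shared GRIA3, GRID1 and GRIN2B with ChAT after vehicle, and GRID1, GRIK2 and GRIN2B with ChAT after Aβ. The expected numbers include Alu-matching peaks, and how reads were placed among these copies was not tested.

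Nearly all peaks lay in introns. In the MANE Select transcript (the reference transcript of a gene) 53 peaks were in introns, 10 of them in intron 1, and 5 lay outside that transcript but inside the gene body. None was in coding sequence, and the peak nearest to a gene start was 9.96 kb from it (GABRA5). The shares of gene body bases, and of peaks in other protein-coding genes, that lie in introns or exons were not computed. The counts therefore describe where the peaks lay and show no preference for introns. When each gene body was divided into 4 equal parts, these held 15, 14, 13 and 17 peaks from start to end.

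The median A+T content of ChAT peaks in receptor genes was 52.4% after vehicle (range 40.8% to 72.5%) and 59.6% after Aβ (45.1% to 79.8%), so the ranges overlapped. In other protein-coding genes the medians were 56.2% and 57.6%. For SATB1 the medians were 48.9% after vehicle (36.1% to 61.7%, 4 peaks) and 46.6% after Aβ (36.3% to 69.1%), against 57.6% and 47.6% elsewhere. The receptor gene bodies as a whole were 60.1% A+T. The SATB1 pattern was present in 50%, 75%, 50% and 66.7% of the peaks in receptor genes, against 59.2%, 62.3%, 64.2% and 69% elsewhere and 80.8%, 70.4%, 79.1% and 80.1% of windows of the receptor gene bodies as long as the median peak. TCCAT or TCCCAT was present in 55%, 30%, 75% and 13.3%, against 31.1%, 28.1%, 34.4% and 16.6% elsewhere and 36.9%, 26.7%, 34.9% and 36% of windows. ChAT peaks in receptor genes had a median length of 138 nt after vehicle and 94.5 nt after Aβ, against 135 and 109 nt in other protein-coding genes.

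**Figure D5:**
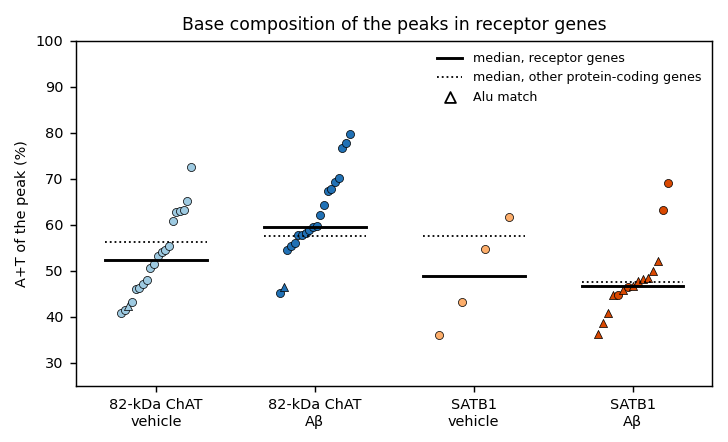
A+T content of each peak in receptor genes (circles, or triangles for Alu-matching peaks) by list, with the median of these peaks (solid line) and of peaks in other protein-coding genes (dotted line). ChAT peaks reach from 40.8% to 72.5% after vehicle and from 45.1% to 79.8% after Aβ, and Alu-matching SATB1 peaks crowd the lower part of the list after Aβ.

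The genes that work with these receptors were examined in the same way, in 4 groups that hold 57 genes. They held 27, 11, 9 and 15 peaks in the lists for ChAT after vehicle, ChAT after Aβ, SATB1 after vehicle and SATB1 after Aβ, against 19.5, 19.3, 7.47 and 19.9 expected, with intervals that held the expected number in each. Genes with a peak numbered 13, 10, 9 and 10 (22.8%, 17.5%, 15.8% and 17.5%, against 10.5%, 11.1%, 4.83% and 12% of all protein-coding genes), where 9.29, 9.93, 4.69 and 9.84 were expected from the bands of length. In the 18 auxiliary subunit genes, which encode partners that set channel trafficking and gating, ChAT peaks after vehicle numbered 11 against 5.33 expected (interval 5.49 to 19.7), 4 of them in CACNG7 and 3 in CNIH3. Without CACNG7 the other 17 genes held 7. In the 16 scaffold genes, which anchor receptors at synapses, ChAT peaks after Aβ numbered 3 against 11.1 (0.619 to 8.77), where 13 had been counted after vehicle against 11.3. The peaks after vehicle and after Aβ lay in DLG2 (6 and 1), SHANK2 (4 and 1), GRIP1 (2 and 1) and GPHN (1 and 0). DLG2 alone covers 2173 kb of the 5.39 Mb of these genes, and the numbers without it were not computed. The expected number lay outside the interval for 2 of the 16 values of these 4 groups in the 4 lists, and no adjustment was made for their number. Peaks of at least 3 lists were found in 6 of the 57, CACNG3, CNIH3, GSG1L, DLG2, SHANK2 and GPHN. Of all protein-coding genes 2.01% held peaks of 3 lists and 0.564% of all 4. DLG2 and SHANK2, genes of postsynaptic scaffold proteins of 2173 and 785 kb, held peaks of all 4 lists, 12 and 7 in number. These numbers were not set against the length of the 2 genes, and the number of genes in at least 3 lists was not set against bands of length.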

How the data were processed

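ChIP-seq of 82-kDa ChAT and SATB1 was analysed in 4 libraries of SH-SY5Y cells, 1 for each protein and treatment. The input samples, 1 per treatment and shared by both proteins, and the reads were not analysed here. According to the methods of the study, the authors aligned reads to hg38 using BWA, took MACS peaks with p below 1e-05 and discarded those that the input also gave. The deposited lists give the position and the MACS score of each peak, that is 10 × −log10 of p. The lowest deposited score was between 50.01 and 50.02 in each list. The submitters' processing notes name BWA and hg38 without a version. The methods also name repeat-masking at this step, and its effect on the peaks that match Alu was not tested. The methods give a range of read numbers for the samples but not the depth of each library, and the intervals and expected numbers cover counting error only.

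For the autosomes, X and Y, peaks were set against GENCODE 44 gene bodies in Python 3.11.15 (pandas 2.3.3, numpy 2.4.6, scipy 1.17.1, pysam 0.24.0, matplotlib 3.10.9) with samtools 1.23.1. Expected numbers used the density of the same list over other protein-coding bodies. Expected numbers of genes used the share of other protein-coding genes with a peak in bands of length from 0, 100, 200, 400 and 800 kb. Alu was matched with blastn 2.17.0 (E value 1e-05) using a 287 nt Alu copy of the APP gene, and copies in the genome with megablast at 90% identity over 90% of the length. Intervals are exact Poisson, or Clopper-Pearson for shares, at 95%. Interval counts, expected numbers and repeat periods were tested on simulated data with known answers, and 7 of 7 checks passed. The share of soft-masked bases was not computed, since the reference sequence used here has capitals only.

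Every gene with a peak was named with its counts. Positions and scores were given for sites within 200 nt of a peak of another list, for exonic or upstream peaks, for the highest score of each list and for genes with at least 4 peaks, except for some items that are not reported here. The printed repeat examples, the word GAATG and the 8 letters of GRIK3 were chosen after the values were seen. The members and gene lists were chosen with earlier results of these data known.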

Additional observations from a re-analysis of the deposited data

Results flagged for a closer look

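Several counts moved in opposite directions with Aβ for the 2 proteins, and these differences were not tested, since each rests on 1 library per protein and treatment. The number of peaks in ionotropic glutamate receptor genes changed by -2 for ChAT (11 to 9) and by 8 for SATB1 (2 to 10). For the AMPA family the changes were -1 (2 to 1) and 2 (1 to 3), and for the kainate family -2 (5 to 3) and 3 (1 to 4). In ionotropic GABA receptor genes, and in the GABA-A family without rho subunits, the changes were -1 (5 to 4) and 2 (1 to 3). The number of receptor genes with a peak changed by -2 for ChAT (14 to 12) and by 9 for SATB1 (4 to 13). The families named are parts of the classes named, so these counts are not separate. Other groups did not move in opposite directions for ChAT and SATB1. The NMDA counts went from 1 to 2 and from 0 to 2, GABA-B from 0 to 3 and from 0 to 1, and delta from 3 to 3 and from 0 to 1. Metabotropic glutamate stayed at 4 and at 1, and all receptor genes went from 20 to 20 and from 4 to 15. The whole SATB1 list held 2884 peaks after vehicle and 5857 after Aβ, and the ChAT lists 7460 and 6345. Of the 15 SATB1 peaks in receptor genes after Aβ 11 matched Alu, against 0 of 4 after vehicle. Without Alu-matching peaks the SATB1 counts after vehicle and Aβ were 1 and 1 in the AMPA family and 1 and 1 in the kainate family. They were 1 and 0 in ionotropic GABA receptor genes, and 4 and 4 for receptor genes with a peak. The opposite movement was then left in ionotropic glutamate receptor genes alone, with 2 and 4 for SATB1 and 11 and 9 for ChAT.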

How the results depend on the processing

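Of 128 alternative values, 112 stayed within the interval of the reported value, or within 1.5 times the reported count. Where these had an expected number, whether the interval held it did not change. Some ratios among them crossed 1, such as 0.865 to 1.2 for ChAT after Aβ with scores at or above the list median. Another 7 moved, and in 9 the interval came to hold the expected number or ceased to. The ratio for the 4 lists together, 0.743 with an interval up to 0.959, rose to 0.86 with scores at or above the list median, 0.834 without Alu-matching peaks, 0.803 with genes of 100 kb or more as reference and 0.902 with Alu-matching peaks expected from Alu bases, and each of these intervals held 1. This sum was added after seeing the data. With the score at or above the list median, receptor genes with a ChAT peak after vehicle numbered 5 in place of 14, and the ratio of observed to expected SATB1 peaks after Aβ in metabotropic glutamate receptor genes was 0 (0 peaks against 3.02, interval up to 1.22, so that the interval held 1). For ChAT after Aβ in metabotropic GABA receptor genes it was 5.78 in place of 2.91, with an interval of 1.19 to 16.9 that excluded 1. These were 3 peaks against 0.519 expected, all in GABBR2, and no adjustment was made for the number of alternatives. Without Alu-matching peaks, receptor genes with a SATB1 peak after Aβ numbered 4 in place of 13, and the ratios for SATB1 after Aβ were 1.79 in ionotropic glutamate receptor genes and 0 in the other 3 classes, each with an interval that held 1. With overlap counted within 200 nt, ChAT and SATB1 after vehicle had 1 pair in place of 0. With Alu-matching peaks expected from Alu bases, an alternative chosen after seeing the data like the tandem measure, the ratio for SATB1 after Aβ was 1.18 in place of 0.629. For ChAT after Aβ the ratio was between 0.789 and 1.2, the highest with the score at or above the list median, where that for ChAT after vehicle was 0.555. For SATB1 after vehicle it was between 0.364 and 0.635 and the interval held 1 except with all determined bases as reference (upper end 0.931). For SATB1 after Aβ the interval excluded 1 with gene bodies extended by 10 kb (0.598, upper end 0.97). Scores at or above the median and the exclusion of Alu leave fewer peaks by construction, and beyond that the cause was not tested. No paired analysis was possible because each protein and treatment had 1 library, and for the same reason no replicate could be left out. With 4 to 20 peaks per list in receptor genes, moderate departures from length could not be seen.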
